A study of Mus musculus with 9 samples.

Results

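The 30 genes described here carry out fatty acid oxidation and lipolysis: 4 long-chain acyl-CoA synthetases, 3 genes of the carnitine shuttle, 4 mitochondrial acyl-CoA dehydrogenases, 5 genes of the later steps of β-oxidation, 3 helpers for unsaturated fatty acids, 3 genes of the electron transfer flavoprotein system, 4 peroxisomal β-oxidation genes and 4 lipases. They were taken by their Ensembl identifiers from a table of 53379 genes, and all 30 were found. The table gives RNA-seq of bone marrow (BM)-derived Mϕs from wild-type C57BL/6 mice, grown in bulk culture with the Mϕ growth factor CSF-1. All 9 cultures received 10 ng/ml CSF-1, alone for the first 3 days and for a further 4 days together with nothing (Control), with IL-4 at 10 ng/ml, or with IL-6 at 100 ng/ml, as the sample labels state. The methods of the study give 100 ng/ml for either cytokine, and its legends give another dose and a shorter treatment, so neither the doses nor the time are settled, and by the labels the cytokines were not dosed alike. Each condition has 3 libraries, numbered #1, #2 and #3, and values are listed in that order throughout. The sample titles give the number alone, so a mouse shared between conditions is not established.

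Mitochondria shorten fatty acids by β-oxidation. A fatty acid is first joined to coenzyme A by an acyl-CoA synthetase, carried across the mitochondrial membranes as a carnitine ester, and then oxidized, hydrated, oxidized again and cleaved in repeated rounds that hand electrons to the respiratory chain. Lipases supply the fatty acids, either from lipid droplets in the cytosol or from lipoproteins and membranes in the lysosome. In Mϕs, IL-4 is known for programs of lipid uptake and oxidative metabolism, and IL-6 signals mainly through Stat3.

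Levels are given as FPKM, the number of sequenced fragments per kilobase of a gene's exons and per 1000000 fragments of the library, as the authors deposited it. The libraries held 29988160 to 39909571 fragments. The test was limma, run on log2(FPKM + 0.1) with all 9 libraries in one fit over the 12824 genes with a mean of at least 0.5 FPKM, and every adjusted p is from this fit (Benjamini-Hochberg over those genes) unless an alternative is named. A gene passed at an adjusted p under 0.05, and "rose" and "fell" are used for genes that passed. Log2 fold changes refer to log2(FPKM + 0.1). Of the 30 genes, 29 were tested. Ehhadh, a peroxisomal bifunctional enzyme, had 25 to 73 fragments a library (0.236 to 0.708 FPKM), fell below the limit and was not tested. The other 29 had 339 to 137484 fragments in every library.

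Arg1 and Socs3, of 8 genes listed for this, checked the treatments. Of the 8, 5 rose with IL-4 and 6 with IL-6 against control (8.55% and 4.58% of all tested genes). Arg1 rose with both, so it does not mark IL-4 alone, and it fell with IL-6 against IL-4. Arg1, a gene induced by IL-4, was at 0.409 to 0.718 FPKM in the control and at 730 to 1227 FPKM in the IL-4 libraries. Socs3, a target of Stat3, was at 1.61 to 2.91 FPKM in the control and at 74.7 to 85.5 FPKM in the IL-6 libraries. Of 10 Mϕ markers, Adgre1, Csf1r, Cd68 and Lyz2 among them, all were detected in each library. Their summed level was 18690 to 21840 FPKM in the control, 7302 to 8546 FPKM in the IL-4 and 23520 to 24140 FPKM in the IL-6 libraries. With IL-4, 8 of 10 fell (16.3% of all tested genes). Granulocyte markers moved as well, with 5011 to 8905 FPKM summed over 12 genes in the control, 2236 to 4164 FPKM with IL-4 and 8192 to 11400 FPKM with IL-6. With IL-4, 11 of 12 fell (16.3% of all tested genes). Of 10 cell cycle genes, summed to 33.3 to 41.3 FPKM in the control, 35.2 to 83.3 FPKM in the IL-4 and 60.2 to 61.9 FPKM in the IL-6 libraries, 2 rose with IL-4 (8.55% of all tested genes). The part of these shifts in the results was not tested, and in bulk cultures fewer cells of a type and less RNA per cell cannot be told apart. Plin1, Lep, Cidea and Adrb3 of 10 adipocyte markers were at most at 0.0251 FPKM in any library, Adipoq was at 0.744 to 1.14 FPKM in the IL-4 libraries and at most at 0.0222 FPKM elsewhere, and nearly all of the summed level of that list was Fabp4, which Mϕs also express. Of 10 hepatocyte markers, Alb and Ttr were at 0 in all libraries and the sum was at most 0.874 FPKM.

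Some libraries stood apart. Transcripts of 18 Paneth and goblet cell genes of the intestine summed to 39.3 to 57.9 FPKM in the 3 control libraries and in IL-4 #1, and to 0.0139 to 0.174 FPKM in the other 5 libraries. Of 18 skeletal muscle genes, Myh1, Mb and Myl1 were at 0 in those 4 libraries and present in the other 5, Myl1 at 0.675 to 1.27 FPKM, which is the reverse of the intestinal pattern. The sum of the 18, 10.5 to 13.8 FPKM in the control, 4.80 to 16.5 FPKM in the IL-4 and 13.1 to 20.2 FPKM in the IL-6 libraries, also holds Tnni2 and Eno3, whose mean levels were highest in the control. The control and IL-6 libraries thus fall wholly into different sets, so that the set and IL-6 cannot be told apart in IL-6 against control. IL-6 against IL-4 can be compared within a set by leaving out IL-4 #1. IL-4 #3 also differed from IL-4 #1 and #2 along gene length: relative to the mean of the other 2 IL-4 libraries, its median log2 deviation was 0.395 over 2366 genes with at most 1500 exon bases and −0.955 over 3396 genes with at least 6000. Counts are therefore given with and without IL-4 #3.

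Over the 29 tested genes, the clearest contrast was between the cytokines. Against IL-4, 13 genes fell with IL-6 and 2 rose (13.3% of all tested genes fell and 20.8% rose). The genes that fell run through mitochondrial β-oxidation, with Cpt2, Acadl, Acadm, Acads, Hadh, Hadha, Hadhb, Acaa2, Decr1, Etfa and Etfb, and include the lipases Pnpla2 and Mgll. Acsl1 and Lipe rose. The median log2 fold change of the 29 genes was −0.35, against 0.22 over all tested genes. When a change of 1 or more on the log2 scale was also asked for, 7 genes passed (20.4% of all genes).

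Against control, 5 genes fell with IL-6 and 0 rose (3.82% and 4.58% of all genes). They were Hadha, Hadhb, Hadh, Pnpla2 and Mgll, and Mgll alone also changed by 1 or more on the log2 scale (5.38% of all genes). At an unadjusted p under 0.05, 13 genes were lower and 4 higher (11.4% and 9.90% of all genes), and limma voom on the fragments also called 0 higher (4.58%). The median was −0.32, with 21 genes below and 8 above 0, against −0.0044 over all genes. With IL-4 against control, 2 genes rose, Acsl4 and Etfa, and 0 fell (8.55% and 16.3% of all genes), with a median of 0.15 against −0.20. At an unadjusted p under 0.05, 7 were higher and 1, Lipe, was lower (12.7% and 24.4% of all genes), and voom called Lipe lower (16.7%). Acsl4 alone also reached a log2 fold change of 1 (13.9% of all genes). Rescaling each library by its median ratio moved the median of all genes for IL-4 against control from −0.20 to −0.0035, and 8 genes then passed as higher with IL-4 (12.3% of all genes).

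**Figure D1:**
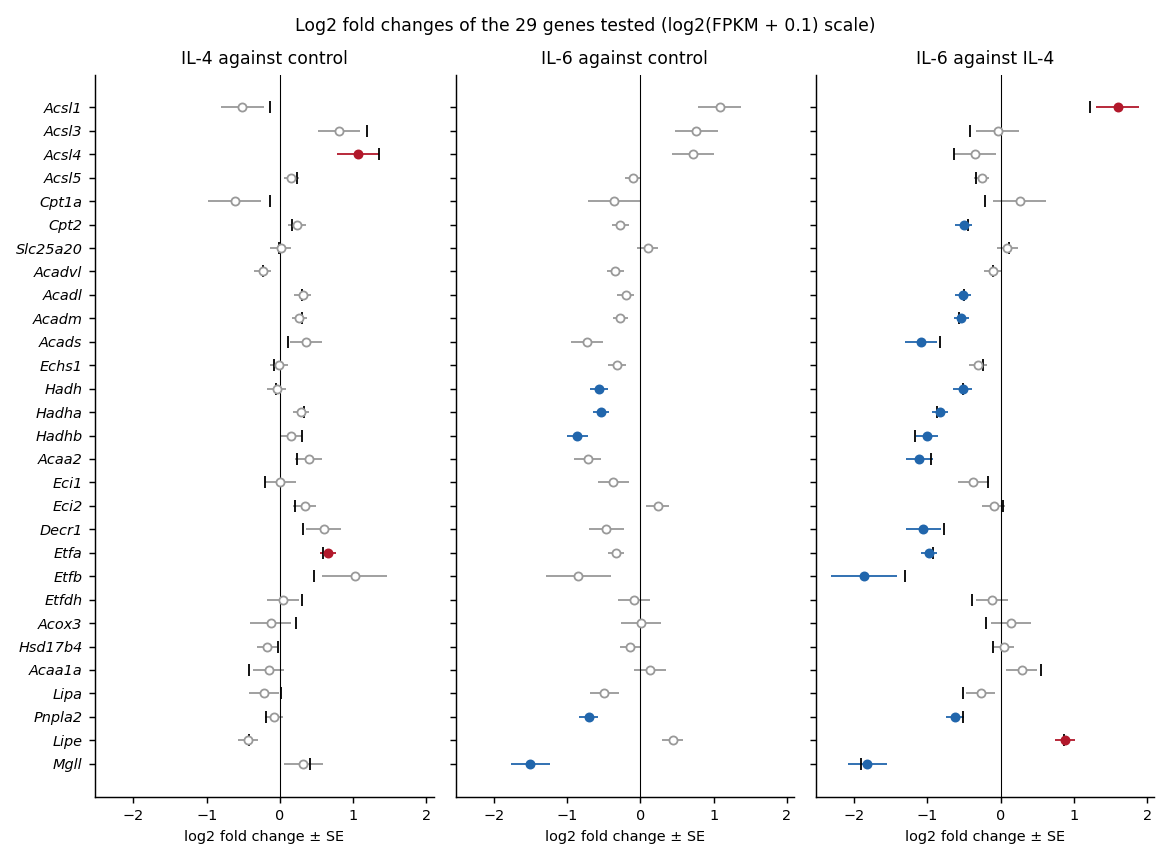
Log2 fold changes with their standard errors (horizontal axis, log2(FPKM + 0.1) scale) of the 29 tested genes in the 3 comparisons; filled red and blue points are genes that rose or fell at an adjusted p under 0.05, open points did not pass, and black ticks give the value without IL-4 #3. The blue points in the right panel are 11 mitochondrial genes and the lipases Pnpla2 and Mgll, and Acsl1 and Lipe are the red ones.

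Without IL-4 #3 the counts grew, among these genes and over the whole table. With IL-6 against control 15 genes then fell and 4 rose (12.4% and 12.3% of all genes), with IL-4 against control 7 rose and 2 fell (15.3% and 22.5%), and with IL-6 against IL-4 17 fell and 3 rose (18.5% and 24.7%). Within the set of libraries without intestinal transcripts, that is without IL-4 #1, the same 13 genes fell and the same 2 rose with IL-6 against IL-4 (14.6% and 24.7%). That fit has only IL-4 #2 and IL-4 #3 for IL-4, and IL-4 #3 is the library with the length trend. No fit left out both IL-4 #1 and IL-4 #3. Adding the set to the fit as a term, no gene passed for IL-6 against control (1.15% of all genes higher and 0.312% lower) or for IL-4 against control (4.57% and 6.09%), a fit that rests on IL-4 #1 against IL-4 #2 and #3. The log2 fold changes of the 7 lost calls kept their sign in it, with IL-6 at −0.61 for Hadha, −0.62 for Hadhb, −0.56 for Hadh, −0.83 for Pnpla2 and −1.54 for Mgll, and with IL-4 at 1.31 for Acsl4 and 0.53 for Etfa. The 5 genes that fell with IL-6 against control also depended on single control libraries: without Control #2 or without Control #3 none of them passed, and without any 1 IL-6 library only Mgll and Hadhb did.

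Groups without overlap were counted as well, and against control this rule counted more genes than the adjusted p. With IL-6, all 3 libraries lay below all control libraries for 16 of the 29 genes and above them for 5 (23.2% and 20.0% of all tested genes). With IL-4, 9 lay above and 2 below (13.5% and 26.8%). Against IL-4, the IL-6 libraries lay below for 15 and above for 2 (20.6% and 36.3%).

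**Figure D2:**
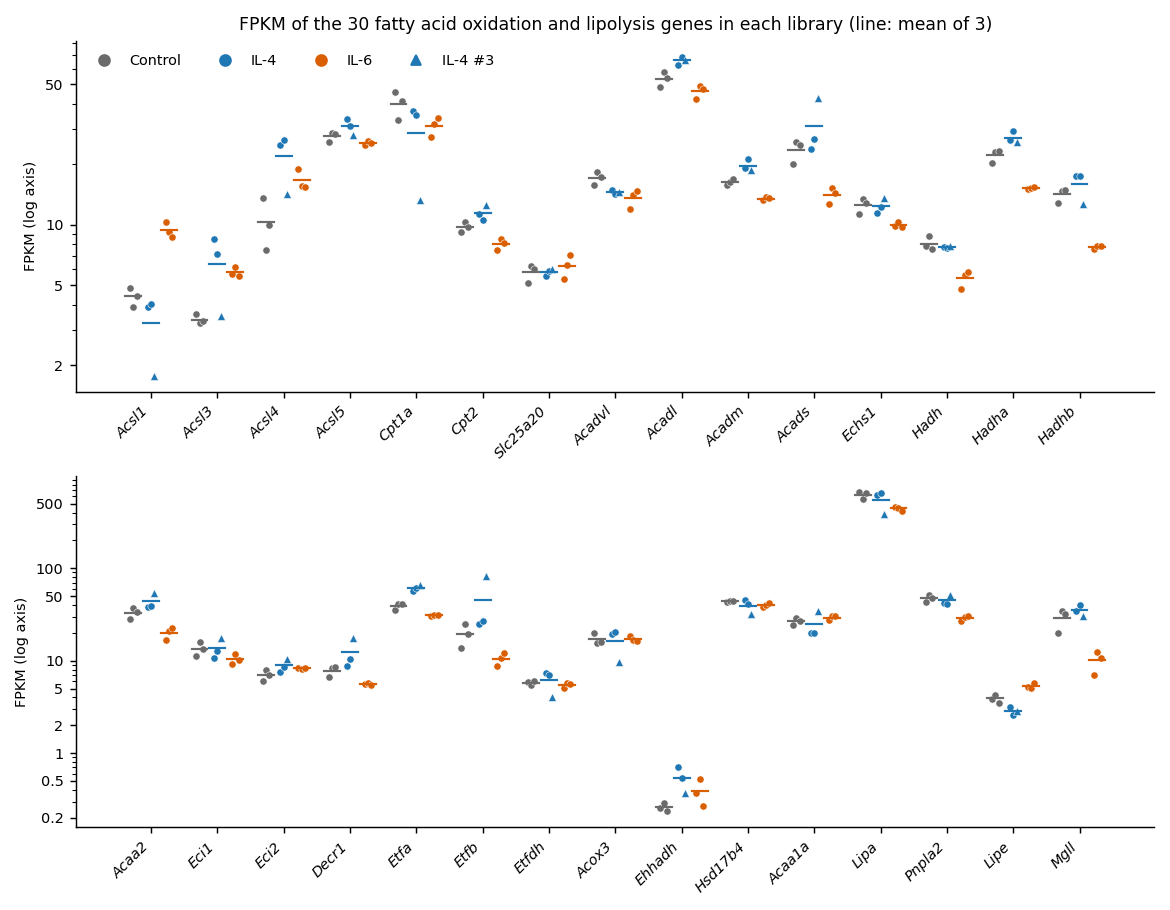
FPKM (vertical axis, log scale) of each of the 30 genes in the 9 libraries, with a line at the mean of each group; the triangle is IL-4 #3. The IL-6 points of Hadha, Hadhb, Pnpla2 and Mgll lie below all control and IL-4 points, and those of Acsl1 lie above.

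The acyl-CoA synthetases activate long-chain fatty acids on entry into the cell's lipid pools. Acsl1, the isoform best known from tissues that burn fat (chr8:46471037-46536051, plus strand; this and other gene coordinates are from GENCODE M21 on GRCm38), measured 4.84, 3.92 and 4.44 FPKM in the control libraries, 3.89, 4.04 and 1.78 FPKM with IL-4, and 10.4, 9.26 and 8.65 FPKM with IL-6. All 3 IL-6 libraries were above all others, while the IL-4 libraries reached into the control range. Acsl1 rose with IL-6 against IL-4, with a log2 fold change of 1.60 (SE 0.29, adjusted p = 0.00404), and had 2.14 times the control mean with IL-6, which did not pass (log2 fold change 1.08, adjusted p = 0.0608). Without IL-4 #3 that difference passed, at an adjusted p of 0.000451. Acsl4, which prefers arachidonic acid (chrX:142317993-142390535, minus strand), measured 13.6, 7.48 and 9.97 FPKM in the control libraries, 25.0, 26.5 and 14.3 FPKM with IL-4, and 19.0, 15.5 and 15.4 FPKM with IL-6. The IL-4 libraries lay above the control ones, with IL-4 #3 nearest to them. Acsl4 rose with IL-4 (log2 fold change 1.06, SE 0.29, adjusted p = 0.0278), and in IL-4 #1, of the same set as the control libraries, it was at 2.42 times their mean. That call was lost without Control #2 (0.0923), Control #3 (0.0838), IL-4 #1 (0.0682) or IL-4 #2 (0.0869). Acsl3 and Acsl5, 2 more synthetases, passed in no comparison. Acsl3 was singled out after its values had been seen: it was at 3.23 to 3.59 FPKM in the control, 5.57 to 6.18 FPKM in the IL-6 and 3.50 to 8.49 FPKM in the IL-4 libraries, where IL-4 #3 was the low value, and without IL-4 #3 it rose with IL-4 (1.19, adjusted p = 0.000136) and with IL-6 (0.76, adjusted p = 0.00141).

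The carnitine shuttle brings activated fatty acids into the mitochondrial matrix. Cpt1a, the outer membrane enzyme that is the main control point of the pathway (chr19:3322334-3385733, plus strand), measured 45.9, 33.1 and 41.3 FPKM in the control libraries, 36.8, 35.3 and 13.4 FPKM with IL-4, and 27.2, 32.0 and 34.2 FPKM with IL-6. The groups overlapped, the lowest value was that of IL-4 #3, and Cpt1a passed in no comparison, with a log2 fold change of −0.62 (SE 0.36, adjusted p = 0.259) with IL-4 and −0.36 (SE 0.36, adjusted p = 0.643) with IL-6. The other isoforms Cpt1b and Cpt1c had means of at most 0.0918 FPKM in any group. Cpt2, the inner membrane enzyme that releases acyl-CoA into the matrix (chr4:107903981-107923610, minus strand), measured 9.26, 10.3 and 9.73 FPKM in the control libraries, 11.4, 10.5 and 12.6 FPKM with IL-4, and 7.52, 8.47 and 8.16 FPKM with IL-6. The 3 groups did not overlap, in the order IL-4, control, IL-6. Cpt2 fell with IL-6 against IL-4 (log2 fold change −0.51, SE 0.12, adjusted p = 0.0114), a call lost without IL-6 #1 (0.0509). Slc25a20, the carnitine-acylcarnitine translocase of the inner membrane, was at 5.14 to 7.08 FPKM over all 9 libraries and passed in no comparison.

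The acyl-CoA dehydrogenases open each round of β-oxidation and differ in the chain length they take. Acadl, for long chains (chr1:66830839-66863277, minus strand), had the highest level of the 4, at 48.4, 57.6 and 54.0 FPKM in the control libraries, 62.8, 68.8 and 66.4 FPKM with IL-4, and 42.3, 49.0 and 47.5 FPKM with IL-6. It fell with IL-6 against IL-4 by 0.51 on the log2 scale (SE 0.11, adjusted p = 0.00926). Acadm, for medium chains (chr3:153922357-153944632, minus strand), measured 15.7, 16.4 and 17.0 FPKM in the control libraries, 19.2, 21.2 and 18.7 FPKM with IL-4, and 13.3, 13.7 and 13.6 FPKM with IL-6, so that the 3 groups did not overlap. It fell by 0.54 (SE 0.10, adjusted p = 0.00422) in the same comparison. Acads, for short chains (chr5:115110299-115119346, minus strand), measured 20.1, 25.9 and 24.9 FPKM in the control libraries, 23.8, 26.8 and 42.9 FPKM with IL-4, and 12.7, 15.3 and 14.4 FPKM with IL-6. Its IL-6 libraries lay below all others, and IL-4 #3 was far above IL-4 #1 and #2. Acads fell by 1.09 (SE 0.22, adjusted p = 0.00681) with IL-6 against IL-4 and, without IL-4 #3, by 0.83 (adjusted p = 0.0018). Against control its log2 fold change with IL-6 was −0.73 (adjusted p = 0.0928). Acadvl, for very long chains, was at 11.9 to 18.3 FPKM, passed in no comparison and was lower than control in every IL-4 and IL-6 library.

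Hadha and Hadhb encode the α and β subunits of the mitochondrial trifunctional protein, which carries the hydratase, hydroxyacyl dehydrogenase and thiolase activities for long chains. The genes lie head to head on mouse chromosome 5: Hadha at chr5:30118304-30155162 on the minus strand and Hadhb at chr5:30155248-30184593 on the plus strand. The 85 bases between their outermost GENCODE starts, chr5:30155163-30155247, are shown because both genes fell with IL-6. Whether this stretch has a part in that was not tested. They are given 5′ to 3′ on the plus strand from the RefSeq promoter windows of GRCm38.p6, with the CpG dinucleotides in capitals. They hold 9 CpG and 69.4% G and C:

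Hadha to Hadhb: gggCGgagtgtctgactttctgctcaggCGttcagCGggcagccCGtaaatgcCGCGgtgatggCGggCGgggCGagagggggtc

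Hadha measured 20.4, 23.1 and 23.3 FPKM in the control libraries, 26.3, 29.5 and 25.8 FPKM with IL-4, and 15.1, 15.2 and 15.4 FPKM with IL-6. Hadhb measured 12.9, 14.7 and 14.9 FPKM in the control libraries, 17.6, 17.4 and 12.7 FPKM with IL-4, and 7.59, 7.82 and 7.86 FPKM with IL-6. In both genes the 3 IL-6 libraries were nearly equal and below all others, and the IL-4 libraries were above the control ones except for Hadhb in IL-4 #3. With IL-6 against control Hadha fell by 0.54 (SE 0.11, adjusted p = 0.0176) and Hadhb by 0.86 (SE 0.15, adjusted p = 0.01), to 0.685 and 0.547 of the control means. Against IL-4 they fell by 0.83 (adjusted p = 0.0006) and 1.01 (adjusted p = 0.00128). The fall of Hadha against control did not pass without Control #2 (0.0862), Control #3 (0.1), IL-6 #1 (0.0753), IL-6 #2 (0.0829) or IL-6 #3 (0.0768), nor with trends on gene length and GC removed (0.0939, at a log2 fold change of −0.64), and that of Hadhb did not pass without Control #2 (0.0511) or Control #3 (0.0580). The exon length of Hadha, 8730 bases, was read back as the length that gives whole fragments. The exons behind it are not known, so its FPKM is not to be set against that of Hadhb. The lengths of Cpt1a, Acaa2, Eci1, Acox3, Ehhadh and Lipa were read back in the same way. Where a sum, share or ranking over genes includes Hadha or any of these, the same limit applies.

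Hadh, the hydroxyacyl dehydrogenase for shorter chains (chr3:131233419-131272101, minus strand), measured 7.83, 8.76 and 7.55 FPKM in the control libraries, 7.80, 7.67 and 7.87 FPKM with IL-4, and 4.78, 5.63 and 5.83 FPKM with IL-6. The IL-4 libraries lay within the control range and the IL-6 libraries below it. Hadh fell with IL-6 against control by 0.57 (SE 0.13, adjusted p = 0.0297) and against IL-4 by 0.52 (SE 0.13, adjusted p = 0.0137). With the library number as a block the first call was lost (adjusted p = 0.0586). It was also lost without any 1 control or IL-6 library, with adjusted p between 0.0758 and 0.131, and the call against IL-4 was lost without IL-6 #1 (0.0571). Acaa2, the matrix thiolase that ends each round for medium chains, measured 28.5, 37.3 and 33.5 FPKM in the control libraries, 38.0, 39.4 and 53.6 FPKM with IL-4, and 16.6, 21.1 and 22.5 FPKM with IL-6. All IL-6 libraries lay below all control ones and all IL-4 libraries above them. It fell with IL-6 against IL-4 by 1.11 (SE 0.18, adjusted p = 0.00253). Against control it was lower by 0.72, which missed the threshold at an adjusted p of 0.0509 and passed with the library number as a block (0.0318). Echs1, the short-chain enoyl-CoA hydratase, was at 9.73 to 13.6 FPKM and passed in no comparison, with its IL-6 libraries below all others.

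Unsaturated fatty acids need extra enzymes that shift or reduce their double bonds. Decr1, the mitochondrial 2,4-dienoyl-CoA reductase (chr4:15917240-15945507, minus strand), measured 6.63, 8.33 and 8.51 FPKM in the control libraries, 8.84, 10.5 and 17.6 FPKM with IL-4, and 5.59, 5.75 and 5.50 FPKM with IL-6. The groups did not overlap, and IL-4 #3 was again the highest library. Decr1 fell with IL-6 against IL-4 by 1.06 (SE 0.24, adjusted p = 0.0111). Eci1 and Eci2, the isomerases, were at 9.22 to 17.7 FPKM and 6.00 to 10.5 FPKM and passed in no comparison.

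The electron transfer flavoprotein takes electrons from the acyl-CoA dehydrogenases to the respiratory chain. Its α subunit gene Etfa (chr9:55454508-55512243, minus strand) measured 35.4, 40.9 and 40.5 FPKM in the control libraries, 56.0, 61.3 and 66.3 FPKM with IL-4, and 30.4, 31.1 and 31.3 FPKM with IL-6. The groups did not overlap, and the 3 libraries of each condition lay close together. Etfa rose with IL-4 by 0.65 on the log2 scale (SE 0.11, adjusted p = 0.00353), and IL-4 #1 alone had 1.44 times the control mean. It fell with IL-6 against IL-4 by 0.98 (SE 0.11, adjusted p = 0.000298), the lowest adjusted p among the 29 genes. The β subunit gene Etfb (chr7:43444083-43457800, plus strand) measured 13.8, 24.9 and 19.4 FPKM in the control libraries, 25.0, 27.1 and 83.0 FPKM with IL-4, and 8.77, 10.6 and 12.2 FPKM with IL-6. IL-4 #3 had about 3 times the level of the other IL-4 libraries, and the lowest IL-4 library hardly exceeded the highest control one. Etfb fell with IL-6 against IL-4 by 1.87 (SE 0.44, adjusted p = 0.0135) and by 1.31 without IL-4 #3 (adjusted p = 0.00311), and the call was lost without IL-6 #1 (0.0524). Etfdh, which passes the electrons on to ubiquinone, was at 4.09 to 7.41 FPKM and passed in no comparison.

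Peroxisomes shorten very long and branched chains. None of the 3 tested genes of this group passed in any comparison, and their log2 fold changes lay between −0.17 and 0.29. Hsd17b4, the peroxisomal bifunctional enzyme, was at 32.1 to 45.6 FPKM, Acaa1a, a thiolase, at 19.7 to 34.7 FPKM and Acox3, an acyl-CoA oxidase, at 9.59 to 20.2 FPKM. IL-4 #3 held the lowest value of Hsd17b4 and Acox3 and the highest of Acaa1a, and without it Acaa1a fell with IL-4 against control (by 0.42, adjusted p = 0.00905) and rose with IL-6 against IL-4 (by 0.56, adjusted p = 0.00224). Ehhadh was at 0.236 to 0.287 FPKM in the control, 0.374 to 0.708 FPKM in the IL-4 and 0.270 to 0.528 FPKM in the IL-6 libraries.

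Among the lipases, Lipa, the lysosomal acid lipase, stood far above the rest (chr19:34492318-34527474, minus strand). It measured 663, 565 and 644 FPKM in the control libraries, 619, 643 and 385 FPKM with IL-4, and 456, 451 and 421 FPKM with IL-6, and its control mean lay at the 99.6th percentile of tested genes. The IL-6 libraries lay below all control libraries, and IL-4 #3 lay below them all. Lipa passed in no comparison, with a log2 fold change of −0.49 (SE 0.20, adjusted p = 0.202) for IL-6 against control. Without IL-4 #3 it fell with IL-6 against control (adjusted p = 0.00666) and against IL-4 (by 0.51, adjusted p = 0.00458).

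The 3 neutral lipases act in turn on triglycerides, diglycerides and monoglycerides. Pnpla2, the adipose triglyceride lipase that starts droplet lipolysis (chr7:141455198-141460743, plus strand), measured 43.1, 51.0 and 48.2 FPKM in the control libraries, 42.3, 41.0 and 51.7 FPKM with IL-4, and 26.9, 29.9 and 30.2 FPKM with IL-6. The control and IL-4 libraries overlapped, and the IL-6 libraries lay below both. Pnpla2 fell with IL-6 against control by 0.71 (SE 0.13, adjusted p = 0.0124) and against IL-4 by 0.63 (SE 0.13, adjusted p = 0.00663). With median-ratio scaling the first of these did not pass, nor without Control #2 (0.0638), Control #3 (0.0658), IL-6 #1 (0.0630), IL-6 #2 (0.0535) or IL-6 #3 (0.0509).

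Mgll, the monoglyceride lipase that also breaks down an endocannabinoid (chr6:88724412-88828360, plus strand), measured 19.8, 34.1 and 32.0 FPKM in the control libraries, 34.1, 40.0 and 30.7 FPKM with IL-4, and 7.01, 12.6 and 10.6 FPKM with IL-6. In each group but IL-4 library #1 was the lowest, and the highest IL-6 library lay below the lowest of the others. With IL-6 it fell by 1.5 against control (SE 0.27, adjusted p = 0.0125), to 0.351 of the control mean, and by 1.82 against IL-4 (SE 0.27, adjusted p = 0.00142). The first call was lost without Control #2 (0.0582) or Control #3 (0.0638). Lipe, the hormone-sensitive lipase (chr7:25379527-25398710, minus strand), went the other way, with 3.89, 4.29 and 3.52 FPKM in the control libraries, 3.16, 2.60 and 2.84 FPKM with IL-4, and 5.21, 5.05 and 5.70 FPKM with IL-6. The 3 groups did not overlap, in the order IL-6, control, IL-4. Lipe rose with IL-6 against IL-4 by 0.87 (SE 0.14, adjusted p = 0.0019; 0.0553 with length and GC trends removed and the set as a term), while its differences from control did not pass, at −0.43 with IL-4 (adjusted p = 0.0538) and 0.44 with IL-6 (adjusted p = 0.103). Without IL-4 #3 both passed, at adjusted p of 0.0343 and 0.0301.

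Summed by step, the order IL-4, control, IL-6 appeared without overlap in the acyl-CoA dehydrogenases, the hydratase to thiolase genes and the flavoprotein genes. The 15 mitochondrial β-oxidation enzymes summed to 293 ± 30.2 FPKM in the control (SD, n = 3, as for all values in this paragraph), 386 ± 61.9 FPKM in the IL-4 and 217 ± 13.4 FPKM in the IL-6 libraries. The groups did not overlap (2-sided exact permutation test, p = 0.1 for each pair, the smallest that 3 against 3 allow). The hydratase to thiolase genes summed to 90.1 ± 8.42 FPKM, 107 ± 6.28 FPKM and 58.5 ± 3.96 FPKM in the 3 groups. The flavoprotein genes summed to 64.1 ± 8.30 FPKM, 112 ± 35.7 FPKM and 46.9 ± 2.43 FPKM. Their IL-4 libraries had 88.4, 95.4 and 153 FPKM, and those of the 15 enzymes 337, 364 and 455 FPKM. The IL-4 mean minus the control mean was 48.3 FPKM for the flavoprotein genes and 92.7 FPKM for the 15 enzymes. Without IL-4 #3 these differences were 27.8 and 57.9 FPKM. The carnitine shuttle genes did not follow the order IL-4, control, IL-6. They were at 60.3, 49.6 and 57.0 FPKM in the control libraries, 53.8, 51.7 and 32.0 FPKM under IL-4 and 40.1, 46.7 and 49.4 FPKM with IL-6. IL-6 thus lay below control without overlap, and IL-4 overlapped both. The helpers for unsaturated fatty acids did not follow it either, at 28.3 ± 4.17 FPKM, 34.9 ± 9.75 FPKM and 24.2 ± 1.16 FPKM with overlap of the IL-4 and of the IL-6 libraries with the control ones. The acyl-CoA synthetases also differed, with 45.8 ± 2.22 FPKM in control, 62.4 ± 13.0 FPKM under IL-4 and 57.5 ± 2.46 FPKM with IL-6. Here the IL-4 mean minus the control mean was 16.6 FPKM, and 24.1 FPKM without IL-4 #3. The peroxisomal genes summed to 88.2 ± 0.832 FPKM, 81.2 ± 4.34 FPKM and 87.0 ± 2.00 FPKM, and median-ratio scaling turned IL-4 against control from −6.96 to 5.32 FPKM. Pnpla2, Lipe and Mgll together had 79.95 ± 11.8 FPKM in control, 82.8 ± 2.98 FPKM under IL-4 and 44.4 ± 4.55 FPKM with IL-6.

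**Figure D3:**
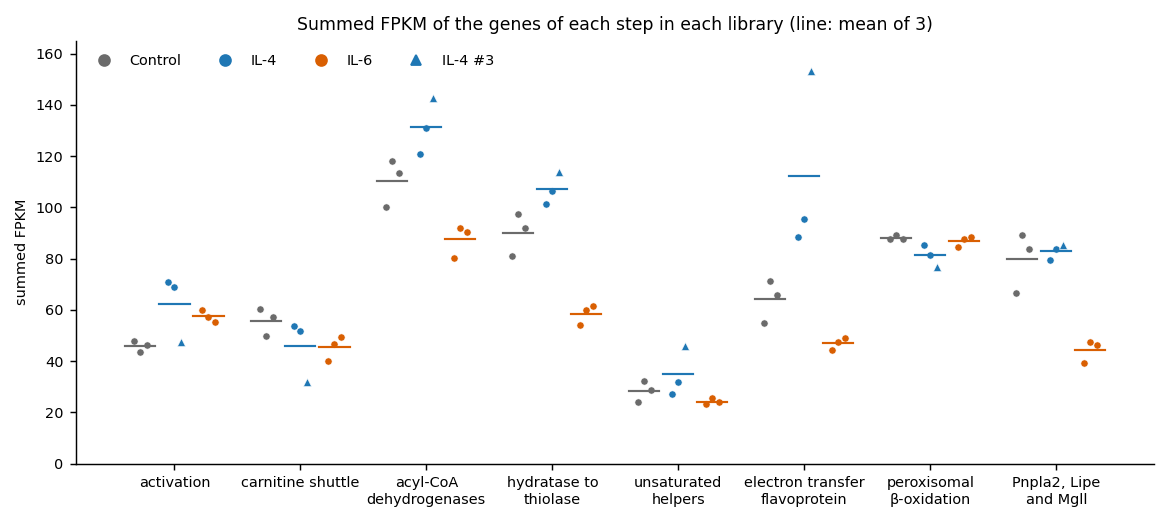
Summed FPKM (vertical axis, linear) of the genes of each step in the 9 libraries, with a line at each group mean; the triangle is IL-4 #3, and Lipa is left out of the lipases. The IL-6 libraries lie below the control ones in the acyl-CoA dehydrogenases, hydratase to thiolase steps, flavoprotein and neutral lipases, and above them in activation.

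Within families the makeup shifted as well, on the scale of FPKM per exon length. Acsl1 made up 9.59 ± 0.545% of the summed FPKM of the 4 synthetases in control (SD, n = 3, as below), 5.03 ± 1.13% under IL-4 and 16.4 ± 0.791% with IL-6, without overlap. Acsl5, the largest part, went from 60.6 ± 6.25% in control to 50.5 ± 7.34% with IL-4 and 44.7 ± 2.54% with IL-6, and Acsl4 from 22.4 ± 5.65% to 34.6 ± 4.27% and 28.9 ± 2.38%. For Acsl5 the IL-4 libraries overlapped the control ones (exact permutation test, p = 0.2), and for Acsl4 the IL-6 libraries did (p = 0.3). Among the dehydrogenases, Acadvl made up 15.6 ± 0.243% in control, 11.1 ± 1.07% under IL-4 and 15.5 ± 0.765% with IL-6, and the IL-4 libraries were below all others. Acads had 16.2 ± 0.395% with IL-6, below all control and IL-4 libraries at 21.3 ± 1.06% and 23.4 ± 5.80%. Of Pnpla2, Lipe and Mgll together, Lipe held 4.95 ± 0.819% in control, 3.47 ± 0.449% under IL-4 and 12.1 ± 1.34% with IL-6, and Mgll 35.3 ± 4.97%, 42.3 ± 5.96% and 22.4 ± 4.27%. For each pair of groups said not to overlap, the exact permutation test gave p = 0.1.

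**Figure D4:**
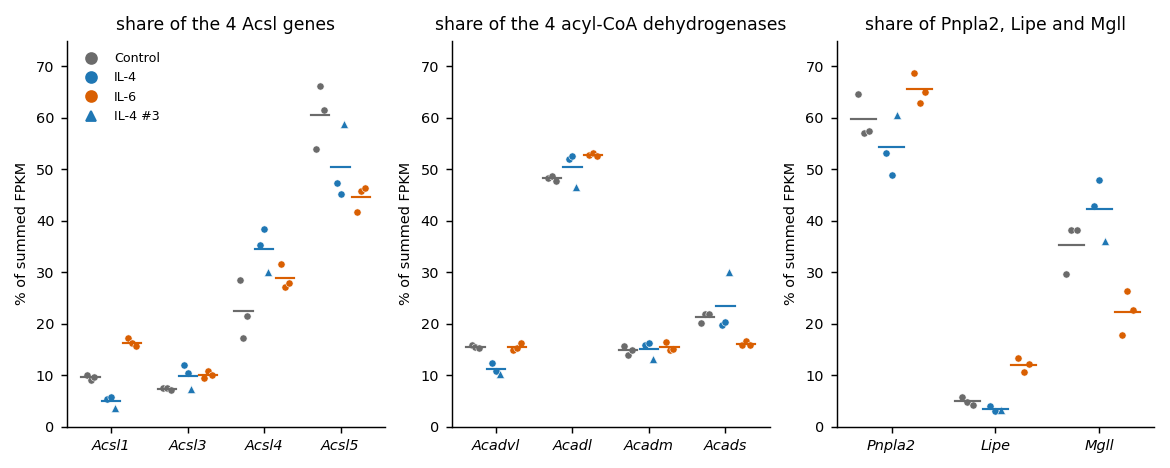
Each gene's share of the summed FPKM of its family (vertical axes, %) in the 9 libraries, for the 4 acyl-CoA synthetases, the 4 acyl-CoA dehydrogenases and the 3 neutral lipases, with a line at each group mean and a triangle for IL-4 #3. Acsl1 and Lipe hold their largest shares with IL-6 and Mgll its smallest.

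IL-4 #3 lay apart from the other IL-4 libraries in several of the genes. Against the mean of IL-4 #1 and #2 on the log2 scale, 4 of the 30 genes were lower by at least 1, Cpt1a (−1.43), Acsl3 (−1.13), Acsl1 (−1.11) and Acox3 (−1.04), and Etfb was higher by 1.67. A further 17 were within 0.5. IL-4 #1 and #2, from different sets of libraries, differed by at most 0.345 in any of the 30 genes. Over the 30 genes the deviation of IL-4 #3 had a Pearson's r of −0.603 and a Spearman's rho of −0.551 with the log2 exon length, given as a description of 1 library. Hadha and Echs1, among the longest by exon length, deviated by only −0.11 and 0.20. Exon length joins all annotated exons of a gene, or was read back from whole fragments as for Hadha. Single transcripts can therefore be shorter.

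**Figure D5:**
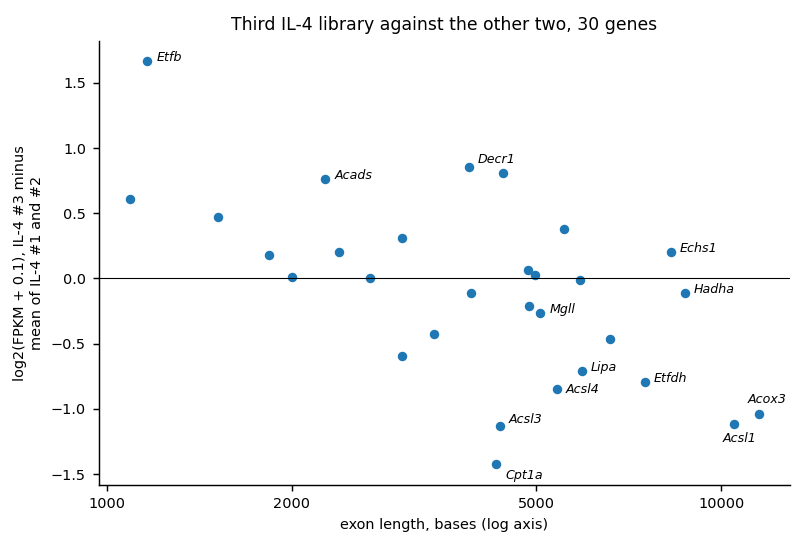
Difference in log2(FPKM + 0.1) between IL-4 #3 and the mean of IL-4 #1 and #2 (vertical axis) against exon length (horizontal axis, bases, log scale) for the 30 genes. Etfb, with few exon bases, lies highest, and Acsl1, Acox3, Acsl3 and Cpt1a lie below −1.

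Of 10 genes of uptake, binding and transport, 8 were tested. With IL-4, 2 rose and 1 fell (8.55% and 16.3% of all tested genes), and 3 fell with IL-6 against control (3.82%). Cd36, the fatty acid translocase, measured 266, 278 and 389 FPKM in the control libraries, 1027, 1107 and 628 FPKM with IL-4, and 24.2, 28.0 and 29.3 FPKM with IL-6. Lpl, the secreted lipoprotein lipase, measured 153, 174 and 237 FPKM in the control libraries, 455, 481 and 608 FPKM with IL-4, and 62.8, 62.0 and 68.4 FPKM with IL-6. In both genes the 3 groups did not overlap. Cd36 rose with IL-4 by 1.54 (SE 0.24, adjusted p = 0.00256) and fell with IL-6 by 3.50 (SE 0.24, adjusted p = 0.000171), and Lpl rose by 1.47 (SE 0.19, adjusted p = 0.000821) and fell by 1.52 (SE 0.19, adjusted p = 0.00222). With the set as a term Lpl against control with IL-6 missed the threshold (−1.77, adjusted p = 0.0591), and with length and GC trends removed as well it did so with both cytokines (0.209 with IL-4, 0.0772 with IL-6). Slc27a1, a fatty acid transport protein, fell with IL-6 by 0.68 (adjusted p = 0.0129), a call lost without Control #3 (0.0752), IL-6 #1 (0.0516) or IL-6 #2 (0.0525) and with the set as a term (0.216). Fabp5, a fatty acid binding protein, fell with IL-4 by 1.03 (adjusted p = 0.00222), and its IL-6 libraries, at 1079 to 1082 FPKM, were above the control range of 586 to 856 FPKM at a log2 fold change of 0.57 that did not pass (adjusted p = 0.0649).

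Of 24 further genes listed around mitochondrial fatty acid metabolism, which need not all act inside mitochondria, 20 were tested. Of these, 3 rose and 3 fell with IL-4 (8.55% and 16.3% of all tested genes), and 2 fell with IL-6 against control (3.82%). Dbi, the acyl-CoA binding protein, rose with IL-4 by 1.43 (SE 0.27, adjusted p = 0.00629), from 60.2 ± 14.0 FPKM to 167 ± 64.8 FPKM (SD, n = 3), and did not pass with the set as a term (1.19, adjusted p = 0.101). Acad10 and Acad12, which resemble acyl-CoA dehydrogenases, fell with IL-4 by 1.26 (adjusted p = 0.00476) and 1.03 (adjusted p = 0.000829), Acad10 not passing with the set as a term (0.0780) and Acad12 not with trends removed as well (0.0671). The fall of Acad12 with IL-6, by 0.59 (adjusted p = 0.0315), was lost without any 1 control or IL-6 library (0.0880 to 0.142). It was also lost with the library number as a block (0.0727), with median-ratio scaling (0.0592) and with the set as a term (0.269). Against IL-4, Ech1, an isomerase, fell with IL-6 by 0.91 (adjusted p = 0.0169; 0.0647 without IL-6 #1 and 0.0504 without IL-6 #3), and Acsf2, an acyl-CoA synthetase family member, rose by 1.14 (adjusted p = 0.0356), which 7 of 9 fits without 1 library lost (up to 0.103).

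Of 22 genes of lipid droplets, lipase cofactors and other lipases, 13 were tested. Against control, 1 rose and 3 fell with IL-4 (8.55% and 16.3% of all tested genes). With IL-6 against control, 1 rose and 3 fell as well (4.58% and 3.82%), but not the same genes throughout. Dgat2, which makes triglycerides, measured 3.28, 3.96 and 4.15 FPKM in the control libraries, 1.72, 2.12 and 1.76 FPKM with IL-4, and 6.62, 7.69 and 8.86 FPKM with IL-6. It fell with IL-4 by 0.99 (SE 0.17, adjusted p = 0.00356) and rose with IL-6 by 1.00 (SE 0.17, adjusted p = 0.00863; 0.230 when the set was a term, at 0.84). Abhd12, a lysophospholipid lipase, fell with both, by 0.71 (adjusted p = 0.00828) and 1.03 (adjusted p = 0.00371), and its fall with IL-4 did not pass with median-ratio scaling (0.114), nor its fall with IL-6 with the set as a term (0.0585). Plin3, a droplet coat protein, passed with IL-4 at 0.35 (adjusted p = 0.043) and with IL-6 at −0.49 (adjusted p = 0.0251), but 7 of 9 fits without 1 library lost the first (up to 0.142) and 5 of 9 the second (up to 0.125). The first was also lost with the library number as a block (0.0588), the second with median-ratio scaling (0.0877) and both with the set as a term (0.354 and 0.162). Plin2, the main coat protein of droplets in Mϕs, was at 211 to 337 FPKM in the control, 341 to 647 FPKM in the IL-4 and 122 to 214 FPKM in the IL-6 libraries. It fell with IL-6 against IL-4 by 1.45 (adjusted p = 0.00854), and against control it did not pass with IL-4 (adjusted p = 0.124) or IL-6 (0.234). With the library number as a block it passed for both (0.00859 and 0.0230).

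Of 24 regulators, 20 were tested. Of these, 3 rose and 6 fell with IL-4 (8.55% and 16.3% of all tested genes), and 2 fell with IL-6 against control (3.82%). Pparg, a nuclear receptor for fatty acids, measured 15.6, 18.2 and 20.02 FPKM in the control libraries, 44.5, 50.1 and 45.1 FPKM with IL-4, and 2.85, 5.08 and 4.73 FPKM with IL-6. It rose with IL-4 by 1.38 (SE 0.22, adjusted p = 0.00254) and fell with IL-6 by 2.09 (SE 0.22, adjusted p = 0.000944; 0.0567 at −2.19 with the set as a term), without overlap of the groups. Ppargc1b, a coactivator of oxidative genes, was at 0.414 to 0.797 FPKM in the control libraries, at 4.69, 3.23 and 0.810 FPKM with IL-4 and at 0.824 to 1.24 FPKM with IL-6, and passed with IL-4 at 1.92 (SE 0.57, adjusted p = 0.0411), a call lost in 8 of 9 fits without 1 library (up to 0.128). Lpin2, a phosphatidate phosphatase, and Ppard, a further nuclear receptor, fell with IL-4 by 1.66 (adjusted p = 0.0102) and 0.99 (adjusted p = 0.0185). Neither passed with the set as a term (0.169 and 0.263), and Ppard not without Control #1 (0.0720) or Control #3 (0.0557). Rxra, also a nuclear receptor, fell with IL-4 by 1.14 (adjusted p = 0.00323; 0.0635 at −0.88 with the set as a term). Ppara and Ppargc1a, the regulators best known from liver and muscle, had means of at most 0.0242 FPKM in any group.

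Promoter sequence was searched for letters of factors known from these pathways, in windows from 250 bases before to 50 bases after RefSeq starts on GRCm38.p6, on both strands. Of the 30 genes, 27 had a window and Acaa2, Decr1 and Hsd17b4 did not. The windows of these genes had a median G and C content of 60.8%, against 52.7% over all 27025 genes with a window. TTCNNNGAA, the palindrome of STAT factors with 3 bases between, was found in 4 of 27 genes (14.8%) and in 9.55% of all genes. The 4 were Cpt2, Hadha, Hadhb and Lipe, and Hadha and Hadhb share 1 match, since their windows overlap. The match between Hadha and Hadhb, inside the outermost GENCODE bounds of Hadha, and that of Cpt2, upstream of its start, are shown with 10 bases on either side and the match in capitals:

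Hadha and Hadhb, chr5:30155118-30155146, plus strand: aaaggatgatTTCTCTGAAggtgagacta

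Cpt2, chr4:107923771-107923799, minus strand: ttctatccagTTCTGTGAAaggaaaagag

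TTC and GAA with 4 bases between, a spacing known for Stat6, were in 0 of 27 genes and in 8.01% of all. The direct repeat of PPAR receptors, a pair of AGGNCA with 1 base between, was in 0 of 27 and in 0.451% of all genes, and TCAAGGTCA, the site of estrogen-related receptors, in 0 of 27 and in 0.466%. The palindrome of NRF1 was found in Etfdh alone (3.70%, against 1.07% of all genes), and the E-box of TFEB and its relatives in 0 of 27 (0.370% of all). A match is a description of these letters in this window and not a bound site.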

How the data were processed

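The authors sequenced polyadenylated RNA of the 9 cultures with a stranded library kit and deposited 1 table of FPKM. The methods name STAR 2.4.2a on GRCm38 and Cufflinks 2.2.1 with GENCODE M5. Of 53379 identifiers, 50604 matched GENCODE M21 with their version (94.8%). Of 141451 low values checked against exon lengths, 100% were whole fragments within 0.05, which a read counter gives, so neither the program nor the annotation release behind the table is settled. Fragments read back this way gave the library totals.

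The members, gene lists and named genes were chosen with earlier results of these data known. Values are given by library for up to 16 members that passed in at least 1 comparison without overlap of the groups, by size of change, and for Cpt1a, Lipa and Pnpla2, and other members by range. Of each other list up to 5 genes that passed are named, mainly by size of change, and some genes with a larger change are not named. The fit used limma 3.58.1 in R 4.3.3, a pseudocount of 0.1, a mean of at least 0.5 FPKM, 3 groups in one model and eBayes with trend and robust options. It was tested on simulated data. Sums and shares of FPKM used a 2-sided exact permutation test. Tables and plots used Python 3.11.15, pandas 2.3.3, numpy 2.4.6 and matplotlib 3.10.9. A sign change was counted as a reversal only where the log2 fold change was at least its SE or the alternative passed.

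Whether libraries of 1 number come from 1 mouse is not stated in the sample titles. Deviations from group means over all tested genes were correlated for each pair of libraries of 1 number. For #1, r was 0.521 for control with IL-4, 0.408 for control with IL-6 and 0.281 for the cytokines. For #2 the values were −0.415, 0.201 and −0.0612. For #3 they were 0.0777, 0.166 and 0.153. The main design has no block.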

Additional observations from a re-analysis of the deposited data

How the results depend on the processing

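Of the 22 calls among the 29 genes, 11 kept an adjusted p under 0.05 in all 23 alternative fits, all of them IL-6 against IL-4: Acaa2, Acadl, Acadm, Acads, Acsl1, Decr1, Etfa, Hadha, Hadhb, Mgll and Pnpla2. When a change of 1 on the log2 scale was asked for as well, Acadl, Acadm, Etfa, Hadha and Pnpla2 of these were lost and 6 remained. The limits are 3 libraries a group, the set of libraries that coincides with IL-6 against control, and IL-4 #3. With the library number as a block (replicate block), Hadh against control was lost (0.0586) and Acaa2 gained (0.0318), and no other call of the 29 genes changed. Removing length and GC trends without IL-4 #3, or together with the set as a term, was chosen after seeing the data. The cause was not tested for any of the changes below.

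The share of all tested genes that a setting called stands in parentheses. For genes higher with IL-4 against control (2), the count was 1 when a change of 1 on the log2 scale was asked for (5.02%), 1 without a filter on low values (3.88%), 8 with median-ratio scaling (12.3%), 5 with quantile normalization (12.1%), 1 with only the groups compared (5.23%), 0 with the set as a term (4.57%), 9 with length and GC trends removed (14.8%), 10 with those removed and without IL-4 #3 (19.3%), and 1 to 7 leaving out 1 library (5.85% to 15.3%). For lower (0), it was 1 without trend or robust moderation (16.7%), 1 with trends removed and without IL-4 #3 (23.2%), 1 with voom (16.7%), and 0 to 2 leaving out 1 library (9.94% to 22.5%). For higher with IL-6 against control (0), it was 1 with a pseudocount of 1 (5.44%), 1 with median-ratio scaling (5.15%), 2 with quantile normalization (5.77%), 3 with only the groups compared (11.1%), 3 with trends removed (7.13%), 4 with those removed and without IL-4 #3 (13.0%), and 0 to 4 leaving out 1 library (2.41% to 12.3%). For lower (5), it was 1 when a change of 1 was asked for (1.89%), 13 with only the groups compared (10.9%), 0 with the set as a term (0.312%), 8 with trends removed (6.96%), 17 with those removed and without IL-4 #3 (18.3%), 1 with them removed and the set as a term (1.73%), and 0 to 15 leaving out 1 library (1.19% to 12.4%). For higher with IL-6 against IL-4 (2), it was 1 when a change of 1 was asked for (13.6%), 1 with a mean of at least 5 FPKM (21.2%), 1 with trends removed and the set as a term (21.8%), and 2 to 3 leaving out 1 library (13.3% to 24.7%). For lower (13), it was 6 when a change of 1 was asked for (6.82%), 20 with trends removed and without IL-4 #3 (26.1%), 20 with them removed and the set as a term (26.0%), and 10 to 17 leaving out 1 library (8.83% to 18.5%).

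Signs turned in 14 cases, none of them among the 22 calls. With trends removed and without IL-4 #3 these were Cpt1a (−0.33) and Acox3 (−0.40) for IL-6 against IL-4 and Acox3 (0.27) for IL-4 against control. With trends removed, Acox3 had −0.38 for IL-6 against IL-4 and Lipa 0.0039 for IL-4 against control. With them removed and the set as a term, Acox3 (−0.40) and Acaa1a (−0.12) turned for IL-6 against IL-4, Hsd17b4 (0.0283) for IL-4 against control and Eci2 (−0.56) for IL-6 against control. With the set alone as a term, Hsd17b4 had 0.0486 and Eci2 −0.0874 in those comparisons. Hsd17b4 had 0.0298 with median-ratio scaling and Lipa, leaving out 1 library, between −0.351 and 0.0181 (the latter without IL-4 #3) for IL-4 against control, and Lipa had 0.0478 with quantile normalization for IL-6 against IL-4.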

Other observations

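Of 18 further peroxisomal enzymes and transporters, 14 were tested: 2 rose and 3 fell with IL-4 (8.55% and 16.3% of all tested genes). For IL-6 against control 2 rose and 3 fell without IL-4 #3 (12.3% and 12.4%). In the fit with all libraries no call was made for IL-6 against control (4.58% and 3.82%). Cat, the catalase that breaks down the hydrogen peroxide of peroxisomal oxidation, measured 251, 197 and 211 FPKM in the control libraries, 114, 111 and 56.5 FPKM with IL-4, and 144, 130 and 121 FPKM with IL-6, and fell with IL-4 by 1.29 (SE 0.26, adjusted p = 0.00922; 0.150 with the set as a term). Abcd2, a transporter of very long-chain fatty acids, measured 8.92, 6.71 and 7.76 FPKM in the control libraries, 20.3, 20.4 and 10.9 FPKM with IL-4, and 4.08, 4.35 and 4.71 FPKM with IL-6. It rose with IL-4 by 1.09 (SE 0.25, adjusted p = 0.0141; 0.0555 without Control #2 and 0.0501 without Control #3) and fell with IL-6 against IL-4 by 1.90 (adjusted p = 0.000721). Phyh, which starts the oxidation of branched phytanic acid, and Decr2, the peroxisomal dienoyl-CoA reductase, fell with IL-4 by 0.66 (adjusted p = 0.00291) and 0.60 (adjusted p = 0.00897), and Pex11a, a peroxisome division protein, passed at 0.63 (adjusted p = 0.0388), which 6 of 9 fits without 1 library lost (up to 0.131). With the set as a term none of these 3 passed for IL-4 against control (0.0535, 0.132 and 0.240).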
